A study of Homo sapiens with 24 samples.

Results

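The 9 genes described here lie together on the short arm of human chromosome 8: FZD3, EXTL3, INTS9, HMBOX1, KIF13B, SARAF, LEPROTL1, MBOAT4 and DCTN6. They were taken by name from the 61533 genes of an exon count table, and they were put on the list because earlier results of the same libraries showed this stretch of chromosome at a high level in the cell line called SoF. The height of these genes in SoF over the other lines is therefore what chose them. It is given below as a description, without a test. What was tested is each gene's change with dexamethasone, the difference between the wt and Ctrl lines, and the genes that work with the members. The difference between wt and Ctrl was not itself a ground of the choice, but the choice used the levels of both lines. The study used U2OS, a human osteosarcoma line with little glucocorticoid receptor (GR) of its own, made to express GR with a C-terminal HaloTag from a CMV promoter. The wt line carried wt GR-HaloTag, the SoF (separation-of-function) line carried K492A GR-HaloTag, a receptor with reduced affinity for RNA and, to a lesser degree, for DNA, and the Ctrl line carried R470A GR-HaloTag, a receptor with reduced affinity for DNA alone. Each line was sampled in ethanol (0.01%, here 0 h; how long the ethanol was on the cells is not given in the sources used here) and after 1, 2 and 3 h of 100 nM dexamethasone, a synthetic glucocorticoid, with 2 libraries in each of the 12 groups and 24 in all. All cells received 200 μM 4-thiouridine for the last 1 h, and the labelled RNA was pulled down and sequenced, so that a value stands mainly for RNA made in that hour.

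All 3 lines carried a transposon inserted with PiggyBac, were selected in puromycin and were sorted by HaloTag fluorescence as stable pools, with fractions chosen for matched nuclear receptor. Each construct is represented by 1 such line, so the effect of a construct and that of its line cannot be told apart. The labels do not say that the 2 libraries of a group came from separate cultures, and p-values measure only the spread between these libraries. Per the study's methods, the biotinylation and pulldown steps handled replicates of a sample in pairs. The 2 libraries of a group may thus share a pulldown, and their spread would then leave out variation between pulldowns.

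Neighbouring genes on a chromosome often have unrelated jobs, and the members are a case of this. FZD3 is a receptor for Wnt ligands that works in planar cell polarity and axon guidance. EXTL3 is a glycosyltransferase that starts heparan sulfate chains on proteoglycans. INTS9 is a subunit of Integrator, the complex that cleaves the 3′ ends of small nuclear RNAs and releases paused RNA polymerase II, and HMBOX1 is a homeobox protein that binds telomeric repeats. KIF13B is a kinesin-3 motor that carries cargo toward microtubule plus ends, and DCTN6 is a subunit of dynactin, the cofactor of the motor dynein. SARAF is a membrane protein of the endoplasmic reticulum that damps store-operated calcium entry, LEPROTL1 is a relative of the leptin receptor trafficking protein LEPROT, and MBOAT4 is the acyltransferase that attaches a fatty acid to the hormone ghrelin.

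The libraries held 8106036 to 15820806 exon counts. Of the osteosarcoma markers examined, COL1A1, RUNX2, SPARC and VIM were high, with medians of 528, 106, 255 and 668 CPM (counts scaled to a common library total), while COL1A2 and TWIST1 had medians of 0.209 and 0 CPM. Of the 12 markers of epithelial, leukocyte, endothelial and hepatocyte cells, the highest median was 4.58 CPM, for CDH1, and the summed level of each of these lists spanned ranges that overlapped between the 3 lines. NR3C1, the gene of the receptor, had a median of 633 CPM in wt, 2187 CPM in SoF and 2858 CPM in Ctrl. Its libraries ranged from 334 to 1595 CPM in wt, 1118 to 6273 in SoF and 1627 to 7658 in Ctrl. The SoF range overlapped those of both other lines. The part of NR3C1 in the members' levels was not tested.

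In the GENCODE 44 annotation of the hg38 assembly (1-based coordinates), the members run in this order: FZD3 at chr8:28494205-28574267 on the plus strand, EXTL3 at chr8:28600469-28756561 on the plus strand, INTS9 at chr8:28767661-28890242 on the minus strand, HMBOX1 at chr8:28890395-29064764 on the plus strand and KIF13B at chr8:29067278-29263124 on the minus strand. After a gap poor in expressed genes follow SARAF at chr8:30063003-30083208 on the minus strand, LEPROTL1 at chr8:30095408-30177208 on the plus strand, MBOAT4 at chr8:30131671-30144665 on the minus strand and DCTN6 at chr8:30156319-30183639 on the plus strand. All are protein coding, and 5 of the 9 are transcribed from the plus strand. The counted exons of LEPROTL1 and DCTN6 share 254 bases on the same strand, which is 13.0% of the exon bases of DCTN6 and 4.69% of those of LEPROTL1. Those of LEPROTL1 and MBOAT4 share 323 bases on opposite strands, or 19.6% of the exon bases of MBOAT4. SARAF shares 12.1% and DCTN6 12.6% of their exon bases with a long non-coding RNA on the opposite strand. KIF13B shares 5.26% and 2.51% of its exon bases with other genes on the opposite strand, and EXTL3 2.06% with EXTL3-AS1. Apart from the table's own name, the sources used here do not say how strand was counted, so values of these overlapping genes are less certain than those of the others.

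Of the 9 members, 8 passed the low-count filter and were tested, and MBOAT4 did not pass. The lowest count of a tested member in any library was 138, for FZD3 in Ctrl, followed by 143 for INTS9, also in Ctrl.

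The Integrator subunit INTS9 ranged from 16.2 to 20.7 CPM in the 8 wt libraries, with a median of 18.0, from 37.0 to 45.5 in SoF, with a median of 38.3, and from 16.5 to 17.8 in Ctrl, with a median of 17.1. The telomere-binding HMBOX1, which starts beside INTS9 on the opposite strand, ranged from 42.7 to 60.2 CPM in wt with a median of 52.2, from 97.2 to 161 in SoF with a median of 128, and from 48.7 to 70.5 in Ctrl with a median of 54.8. For both genes every SoF library stood above all 16 others, and the wt and Ctrl libraries overlapped.

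The motor KIF13B ranged from 36.8 to 56.0 CPM in wt with a median of 44.6, from 77.1 to 111 in SoF with a median of 86.2, and from 25.6 to 35.3 in Ctrl with a median of 28.2. Here the 3 lines were fully apart, with Ctrl lowest. The dynactin subunit DCTN6 ranged from 26.8 to 32.2 CPM in wt with a median of 29.5, from 49.8 to 83.5 in SoF with a median of 73.2, and from 21.5 to 31.9 in Ctrl with a median of 25.5. Its SoF libraries were all above the others and spread most widely, with the lowest at 3 h.

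SARAF, the brake on calcium entry, ranged from 82.3 to 106 CPM in wt with a median of 96.8, from 188 to 226 in SoF with a median of 207, and from 71.4 to 94.6 in Ctrl with a median of 75.3. LEPROTL1 ranged from 36.0 to 54.2 CPM in wt with a median of 44.5, from 86.0 to 125 in SoF with a median of 97.9, and from 30.1 to 46.2 in Ctrl with a median of 38.8. In both, SoF stood clear of the other lines while wt and Ctrl overlapped.

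The genes at the lower-coordinate end of the list were raised less. The heparan sulfate enzyme EXTL3 ranged from 77.3 to 119 CPM in wt with a median of 87.2, from 129 to 198 in SoF with a median of 151, and from 68.8 to 97.2 in Ctrl with a median of 90.4. Its lowest SoF library was just above the highest of the other 16. The Wnt receptor FZD3 ranged from 19.3 to 36.2 CPM in wt with a median of 23.9, from 22.4 to 55.8 in SoF with a median of 37.0, and from 14.6 to 28.6 in Ctrl with a median of 19.5. FZD3 was the tested member whose SoF libraries overlapped the others.

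**Figure D1:**
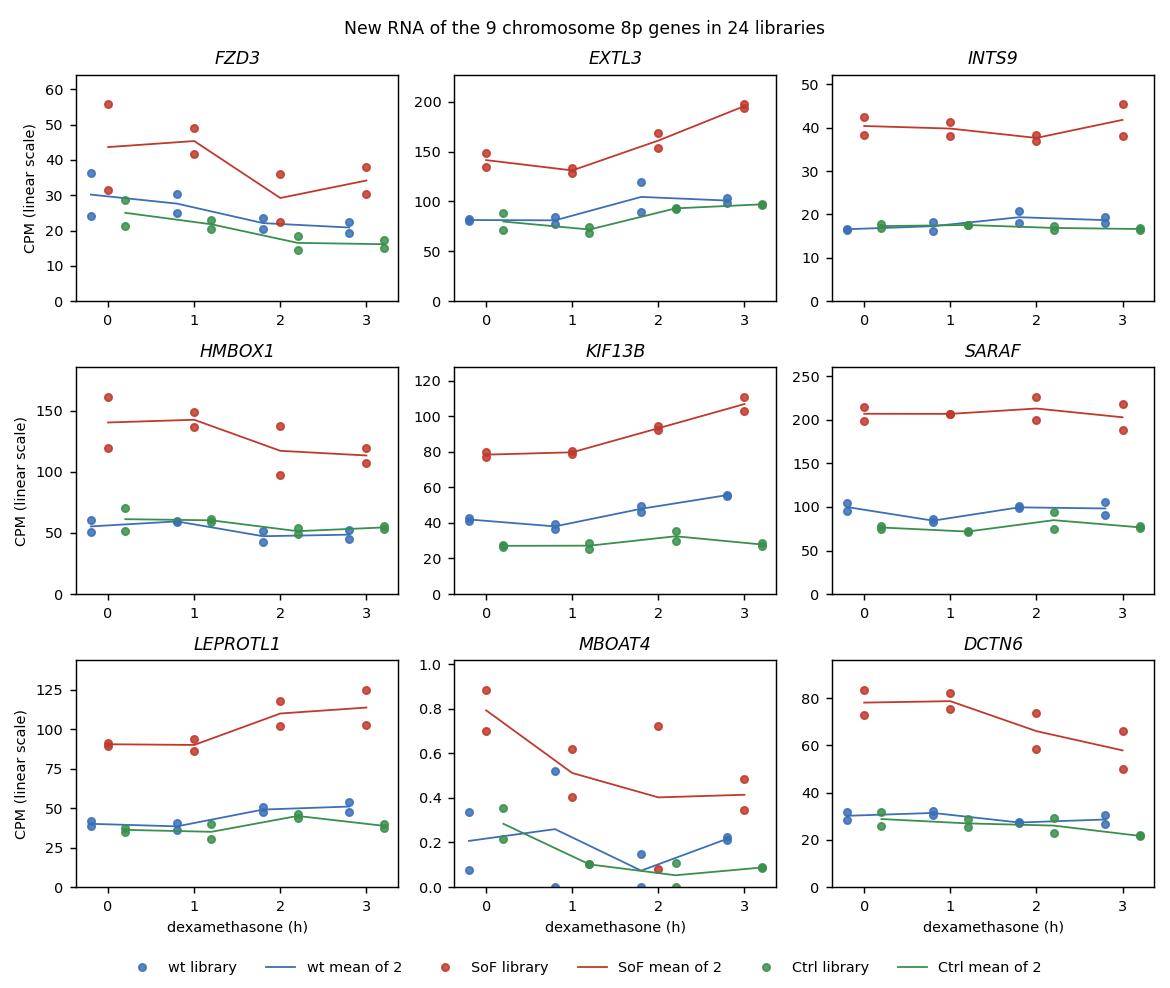
Level of each member in CPM (vertical axis, linear and starting at 0) against hours of dexamethasone (horizontal axis) for the wt (blue), SoF (red) and Ctrl (green) lines, with a point for each of the 24 libraries and lines through the mean of the 2 libraries of a group. In 7 of the 8 tested members all SoF points lie above all others at every time, FZD3 overlaps, and MBOAT4 stays below 1 CPM.

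In 7 of the 8 tested members the lowest SoF library was above all 16 wt and Ctrl libraries, against 78 of the 23651 genes tested (0.33%). The list was chosen on this contrast, and nothing is read from the count. In a fit with 8 libraries a line, which ignored time as the study's methods did, the SoF level over wt was 0.60 ± 0.17 (SE) on the log2 scale for FZD3, 0.78 ± 0.11 for EXTL3, 1.16 ± 0.06 for INTS9, 1.29 ± 0.11 for HMBOX1, 0.97 ± 0.10 for KIF13B, 1.13 ± 0.07 for SARAF, 1.19 ± 0.10 for LEPROTL1 and 1.26 ± 0.10 for DCTN6. The median of the 8 was 1.14, or 2.21-fold, against a median of -0.01 over all genes tested. Over Ctrl the differences in level were 0.94 for FZD3, 0.89 for EXTL3, 1.23 for INTS9, 1.18 for HMBOX1, 1.65 for KIF13B, 1.43 for SARAF, 1.39 for LEPROTL1 and 1.45 for DCTN6, with a median of 1.31, or 2.47-fold. Both columns use the same SoF libraries. The folds thus ran from 1.52 for FZD3 to 2.45 for HMBOX1 over wt and from 1.85 for EXTL3 to 3.13 for KIF13B over Ctrl. EXTL3 and FZD3 had the lowest folds of the 8 against both lines.

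The height in SoF was present before dexamethasone. At 0 h the log2 difference from wt ran from 0.53 for FZD3 to 1.37 for DCTN6, with a median of 1.11, and that from Ctrl ran from 0.81 to 1.53, with a median of 1.27. The median over wt was 1.22 at 1 h, 1.03 at 2 h and 1.03 at 3 h, and the median over Ctrl was 1.30, 1.24 and 1.37. Within a gene the difference from wt moved by as little as 0.07 over the 4 times for LEPROTL1, between 1.16 and 1.23, and by as much as 0.36 for DCTN6, between 1.02 at 3 h and 1.37 at 0 h. Against Ctrl it moved most for KIF13B, from 1.52 to 1.94, the highest value being at 3 h. The SE of such a difference at a single time, with 2 libraries a group, was 0.12 to 0.26, while the movement over the 4 times was 0.07 to 0.41.

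**Figure D2:**
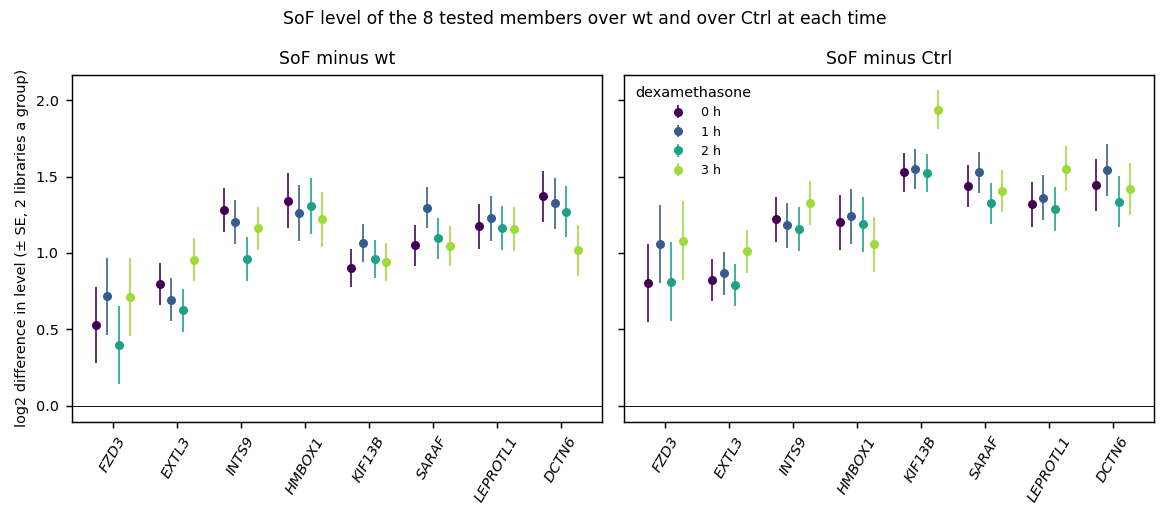
Log2 difference in level (vertical axis) of each tested member between SoF and wt (left) and between SoF and Ctrl (right) at 0, 1, 2 and 3 h of dexamethasone, with bars of 1 SE from the fit on 12 groups of 2 libraries. Every point lies above 0, from 0.40 for FZD3 against wt at 2 h to 1.94 for KIF13B against Ctrl at 3 h.

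The tested genes around the members show where the height begins and ends along the chromosome. Between 25 and 35 Mb there were 61 tested genes, and 4 stretches were marked off among them after their values had been seen, so these are descriptions. In the 14 genes before TRIM35 the median log2 difference of SoF was 0.05 from wt and 0.06 from Ctrl. Of these genes, 7 were higher in SoF than in both other lines. Over all 21058 genes with a value and a place in the annotation, 7282 were higher in this way. From TRIM35 to EXTL3-AS1 (chr8:27284886-28756561), 14 of 14 genes were higher in SoF than in both other lines, with medians of 0.71 over wt and 0.86 over Ctrl, or 1.64-fold and 1.81-fold. This lower step holds FZD3 and EXTL3 beside genes such as CCDC25 and ELP3. From INTS9 to ENSG00000272375 (chr8:28767661-30201332), 13 of 14 genes were higher, with medians of 1.17 over wt and 1.44 over Ctrl, or 2.25-fold and 2.71-fold. This upper step holds the other 6 tested members, which were chosen for this height. With members left out, 19 of 20 genes of the lower and upper steps were higher, with medians of 0.81 over wt and 0.88 over Ctrl. From TUBBP1 onward the medians of the 19 genes were -0.03 and -0.04, and 5 were higher in SoF than in both other lines.

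All 8 tested members were at least 0.5 log2 units higher in SoF than in wt and than in Ctrl, the height they were chosen for. Of the 53 other genes in the window, 15 (28.3%) were as well, against 491 of the 21058 genes with a value in this fit and a place in the annotation (2.33%) and 19 of the 668 tested genes of chromosome 8 outside the window (2.84%). Between the outermost members the table held 44 annotated genes, of which 15 were tested: the 8 members and 7 long non-coding RNAs. Of these 7, 6 were higher in SoF than in both other lines, beside 7282 of the 21058 genes over all. EXTL3-AS1, antisense to EXTL3, was 1.03 higher than wt and 0.87 higher than Ctrl on the log2 scale. ENSG00000259366, which lies within HMBOX1 on the same strand, was higher by 1.29 and 1.27, beside 1.29 and 1.18 for HMBOX1 itself. Whether its counts are separate from RNA of HMBOX1 was not tested. LINC00589 was higher by 0.75 and 1.27, ENSG00000248964 by 1.80 and 2.17, ENSG00000289334 by 1.13 and 1.49, and DCTN6-DT, which starts beside DCTN6 on the other strand, by 0.97 and 1.60. The exception was ENSG00000253632, with a mean of 1.03 CPM, at -0.24 and -0.27. The 6 raised ones were also low or moderate, with means of 5.52, 14.4, 1.38, 1.89, 4.33 and 2.83 CPM in the order named. Among the genes just outside the list, ELP3, ZNF395 and FBXO16 on the lower side differed from wt by 0.86, 0.63 and 0.71 and from Ctrl by 0.84, 0.86 and 0.86. On the upper side the non-coding ENSG00000285669 and ENSG00000272375 differed from wt by 1.83 and 1.94 and from Ctrl by 1.74 and 1.61, and the next tested gene, TUBBP1, by -0.46 and -0.21. The raised stretch was thus longer than the list on the lower side. On the upper side it went past DCTN6 only in ENSG00000285669 and ENSG00000272375, with means of 6.63 and 0.915 CPM. ENSG00000272375 lies within ENSG00000285669, and both follow DCTN6 on its strand. Whether their RNA is separate from that of DCTN6 was not tested. DUSP4, a phosphatase gene in the gap between KIF13B and SARAF, was not tested, with 10 counts over the 8 wt libraries, 16 over the SoF libraries and 12 over the Ctrl libraries.

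**Figure D3:**
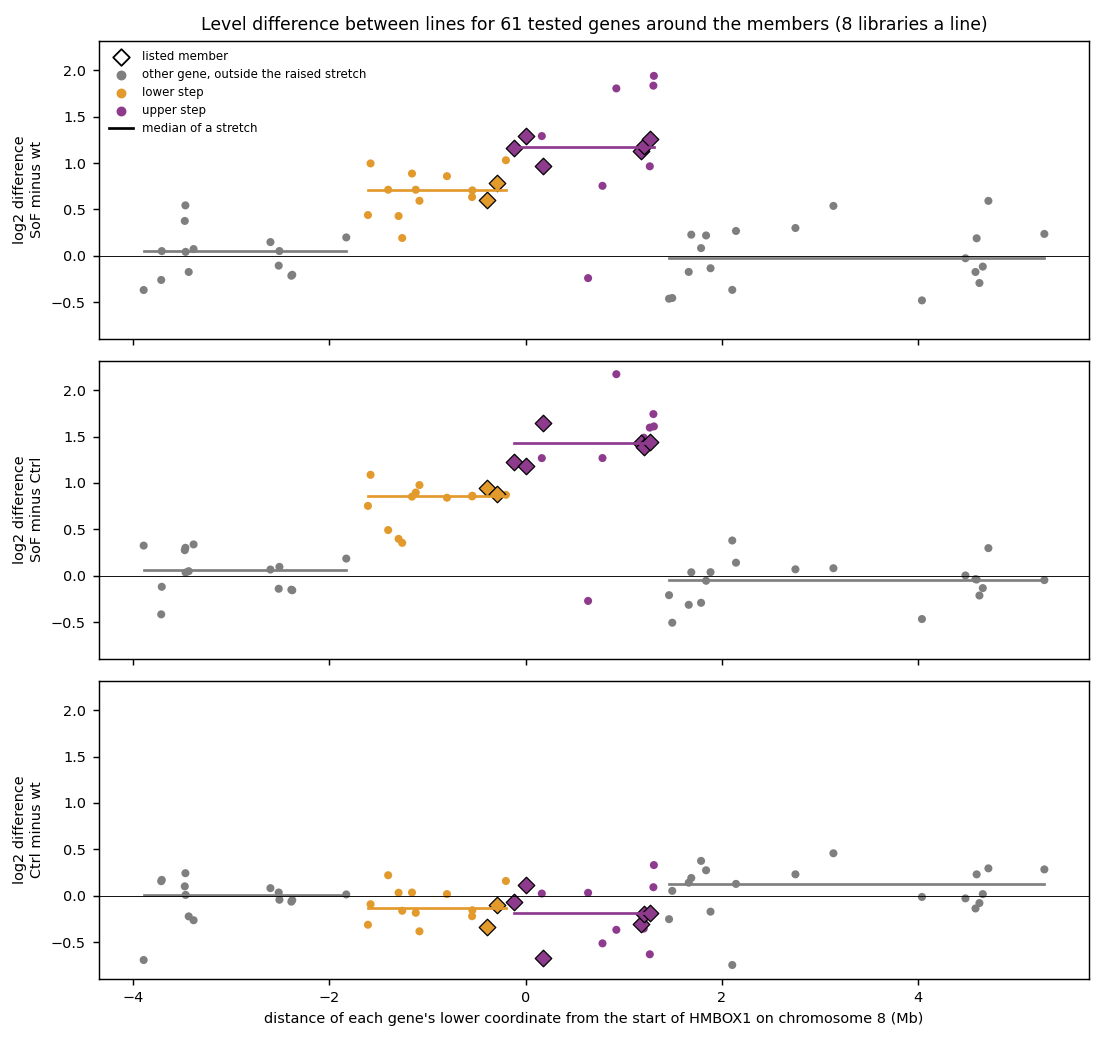
Log2 difference in level (vertical axes) of SoF minus wt (top), SoF minus Ctrl (middle) and Ctrl minus wt (bottom) for the 61 tested genes between 25 and 35 Mb, against the distance in Mb of each gene's lower coordinate from the start of HMBOX1. Members are outlined diamonds, other genes are circles and horizontal lines are medians of the 4 stretches, which lie at 0.05, 0.71, 1.17 and -0.03 in the top panel.

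The Ctrl and wt lines were compared by the quasi-likelihood F test of edgeR, adjusted over 21122 genes by the Benjamini-Hochberg method, a comparison of 8 libraries against 8 whose difference uses no SoF level. The same wt and Ctrl libraries entered the choice of the members. KIF13B was lower in Ctrl, at 28.7 ± 2.99 CPM (SD, n = 8) against 45.9 ± 7.21 in wt, a log2 difference of -0.67 ± 0.10 (SE, adjusted p = 0.00012), and none of the 8 Ctrl libraries reached the lowest wt library. SARAF was also lower, at 77.4 ± 7.34 against 95.5 ± 8.48 CPM (-0.30 ± 0.06, adjusted p = 0.00715), and 1 Ctrl library, at 2 h, lay inside the wt range. The other 6 did not pass the test, with differences from -0.34 for FZD3 to 0.11 for HMBOX1. So 2 of 8 members were called lower and 0 higher, beside 2.66% of all tested genes called lower and 2.11% called higher. With a time term in the fit 4 were called lower, the further 2 being FZD3 (-0.35, adjusted p = 0.0425) and LEPROTL1 (-0.20, adjusted p = 0.0406). The fit with a time term also made more calls over all 21122 genes, with 2167 lower and 1798 higher. The median difference of the 8 members was -0.19, and that of all genes was -0.00450. KIF13B was lower in Ctrl at each time, by -0.63 at 0 h, -0.48 at 1 h, -0.56 at 2 h and -0.996 at 3 h on the log2 scale. With the 0 h libraries alone neither call was made, at -0.62 for KIF13B (adjusted p = 0.642) and -0.38 for SARAF (0.681). That fit called 4 of all 22329 genes higher and 0 lower, so the missing calls do not show that the difference was absent at 0 h. With the dexamethasone libraries alone, an alternative chosen after seeing the data, the KIF13B call was made and the SARAF call was not (adjusted p = 0.118).

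The change with dexamethasone was tested next. The same test, adjusted over 23651 genes in a fit of the 12 groups, called EXTL3 and KIF13B higher at 3 h than at 0 h in SoF and KIF13B higher in wt, and it called none in Ctrl. EXTL3 had 149 and 134 CPM in the 2 SoF libraries at 0 h and 194 and 198 at 3 h, a rise of 0.47 ± 0.14 on the log2 scale (1.38-fold, adjusted p = 0.0201). Its 3 h libraries were both above its 0 h libraries in wt (80.6 and 82.1, then 98.4 and 103) and in Ctrl (88.5 and 71.1, then 96.9 and 97.2), where the changes of 0.31 and 0.28 did not pass the test. KIF13B had 79.7 and 77.1 CPM in SoF at 0 h and 111 and 103 at 3 h, a rise of 0.45 ± 0.12 (1.36-fold, adjusted p = 0.0123). In wt it went from 42.9 and 40.9 to 56.0 and 55.3 CPM, a rise of 0.41 ± 0.12 (1.33-fold, adjusted p = 0.0355). In Ctrl it had 27.6 and 26.6 CPM at 0 h and 28.8 and 26.9 at 3 h, a change of 0.04 ± 0.13. Against these counts of 2 of 8 members in SoF, 1 in wt and 0 in Ctrl, 11.2% of all tested genes were called as rising in SoF, 6.6% in wt and 8.58% in Ctrl. No member was called as falling, beside 8.11% of tested genes in SoF, 4.12% in wt and 5.6% in Ctrl. At an unadjusted p under 0.05 there were 4 members in SoF, 4 in wt and 2 in Ctrl, beside 32.6%, 24.7% and 28.4% of all tested genes, and DESeq2 made 2 calls in SoF, 1 in wt and 0 in Ctrl.

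These calls rest on 2 libraries a group. The KIF13B call in wt was lost without any 1 of its 4 libraries (adjusted p = 0.12 to 0.158). Its call in SoF was lost without 0 h replicate 2 (adjusted p = 0.107) or 3 h replicate 1 (0.119), and the EXTL3 call without 0 h replicate 2 (0.187), 3 h replicate 1 (0.0875) or 3 h replicate 2 (0.11). The values themselves stayed between 0.39 and 0.50 for KIF13B in SoF, 0.39 and 0.43 for KIF13B in wt, and 0.40 and 0.55 for EXTL3.

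The other members did not pass the test at 3 h. LEPROTL1 stood at 0.35 ± 0.15 in wt, 0.33 ± 0.14 in SoF and 0.10 ± 0.15 in Ctrl on the log2 scale of the change. DCTN6 stood at -0.08 ± 0.17 in wt, -0.43 ± 0.16 in SoF (adjusted p = 0.0643) and -0.40 ± 0.17 in Ctrl. Of the libraries of DCTN6 in SoF, leaving out 3 h replicate 2 gave a called fall (-0.65, adjusted p = 0.0425), and leaving out 3 h replicate 1 gave -0.25 (adjusted p = 0.468). In SoF its libraries went from 72.8 and 83.5 CPM to 49.8 and 66.0, so that both 3 h libraries were below both 0 h libraries. HMBOX1 stood at -0.19, -0.31 and -0.16, INTS9 at 0.17, 0.05 and -0.06, and SARAF at -0.02, -0.03 and 0.00 in wt, SoF and Ctrl. For SARAF the 95% intervals of the change lay between -0.30 and 0.28 in all 3 lines.

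FZD3 stood at -0.53 ± 0.25 in wt and -0.62 ± 0.26 in Ctrl, the lowest of the 8 members in those lines, and at -0.35 ± 0.25 in SoF, and none passed the test. Without the low-count filter FZD3 was called in Ctrl (-0.62, adjusted p = 0.0415). Its 0 h libraries were far apart: 24.1 and 36.2 CPM in wt, 31.5 and 55.8 in SoF and 21.4 and 28.6 in Ctrl, with replicate 2 the higher in each line. HMBOX1 also had its higher 0 h library in replicate 2 in all 3 lines, at 60.2 against 50.4, 161 against 119 and 70.5 against 51.9 CPM. Without 0 h replicate 2, the 3 h change of FZD3 in SoF was 0.12.

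At the earlier times no member was called in any line. At 1 h, 0 of 8 members passed the test in wt, SoF and Ctrl, beside 0.156%, 0.165% and 0.0465% of all tested genes, and the changes lay between -0.24 and 0.10 in wt, -0.11 and 0.06 in SoF and -0.19 and 0.02 in Ctrl. At an unadjusted p under 0.05 there were also 0 in each, beside 11%, 6.96% and 1.79% of all genes, and DESeq2 called 0. At 2 h, 0 of 8 passed in each line, beside 4.6%, 5.68% and 7.95% of all tested genes. The members at an unadjusted p under 0.05 at 2 h were EXTL3 in wt (0.36), FZD3 in SoF (-0.58), and FZD3 (-0.58) and LEPROTL1 (0.31) in Ctrl, where 18.6% of all genes in wt, 19.9% in SoF and 22.9% in Ctrl reached this level. DESeq2 called 0 in each.

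**Figure D4:**
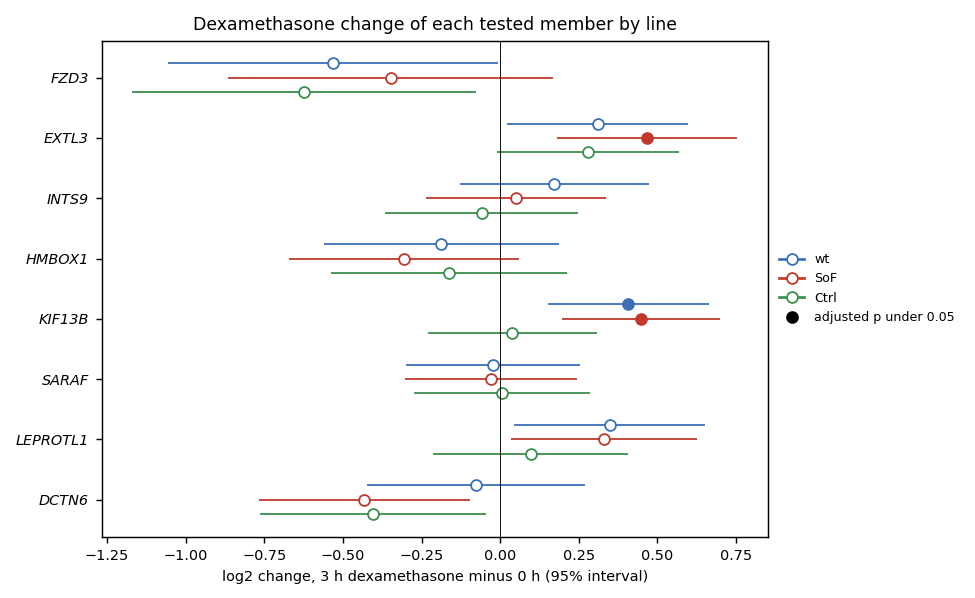
Log2 change (horizontal axis) between 0 h and 3 h of dexamethasone for each tested member in wt (blue), SoF (red) and Ctrl (green), with 95% intervals from the fit on 12 groups and filled points where the adjusted p was under 0.05. The filled points are EXTL3 in SoF and KIF13B in SoF and wt, at 0.47, 0.45 and 0.41.

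Whether the lines differed in this 3 h change was tested directly, as an interaction in the same fit. Between SoF and wt 0 of 8 members passed edgeR's test, with 0 at an unadjusted p under 0.05, and the 95% intervals of the difference ran from -0.84 to 0.92. Between SoF and Ctrl 0 of 8 passed, with intervals from -0.67 to 1.03. The member with an unadjusted p under 0.05 was KIF13B, whose change was 0.41 ± 0.18 higher in SoF than in Ctrl (adjusted p = 0.99997). Between Ctrl and wt 0 of 8 passed and 0 had an unadjusted p under 0.05, with intervals from -0.85 to 0.66, and KIF13B stood at -0.37 ± 0.18 (adjusted p = 0.982). DESeq2 called 0 members in the 3 comparisons. At an unadjusted p under 0.05 stood 2.36%, 2.84% and 3.57% of all genes. Over all tested genes the share called was 0% between SoF and wt, 0.0127% between SoF and Ctrl and 0% between Ctrl and wt. Between SoF and Ctrl this was 3 genes higher and 0 lower over all genes, where DESeq2 called 11 and 1 and edgeR without the low-count filter 50 and 2. That KIF13B passed the test for a change in SoF and wt and not in Ctrl is therefore not shown to be a difference between the lines.

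MBOAT4, the ghrelin acyltransferase, was near the limit of detection. It had 20 counts over the 8 wt libraries, 48 over the SoF libraries and 11 over the Ctrl libraries, which is 0 to 0.52 CPM in wt, 0.081 to 0.885 in SoF and 0 to 0.353 in Ctrl. The ranges overlapped, and no fold change or test is given. Part of its exons lies opposite those of LEPROTL1, a much more abundant gene that was itself high in SoF.

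Relative to exon length the members covered a wide range of levels. In wt SARAF was highest at 31.8 ± 2.83 CPM per kb of exon (SD, n = 8), followed by DCTN6 at 14.98 ± 1.096, LEPROTL1 at 8.25 ± 1.17, HMBOX1 at 7.93 ± 1.01, EXTL3 at 5.58 ± 0.863, KIF13B at 4.13 ± 0.649, INTS9 at 3.67 ± 0.314, FZD3 at 1.83 ± 0.402 and MBOAT4 at 0.115 ± 0.108. SARAF and DCTN6 stood apart from their neighbours in this order, FZD3 stood apart from INTS9 and from MBOAT4, and the ranges of successive genes from LEPROTL1 to INTS9 overlapped. In SoF the order began with SARAF at 69.2 ± 4.01 and DCTN6 at 35.8 ± 5.89, and ended again with FZD3 at 2.76 ± 0.777 and MBOAT4 at 0.323 ± 0.155. HMBOX1 (19.3) and LEPROTL1 (18.7) exchanged places with overlapping ranges, as did INTS9 (8.14) and KIF13B (8.06). The other places in the order were the same as in wt.

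Most members act in complexes or pathways whose other genes lie elsewhere in the genome. A list of 86 such partners and relatives was examined, of which 80 were tested, with members left out. Between SoF and wt, 3 were called higher and 5 lower by edgeR's quasi-likelihood test, beside 4.57% and 3.45% of all tested genes. The median log2 difference of the 80 was -0.04, beside -0.01 for all genes. Between SoF and Ctrl 0 were called, with 11 at an unadjusted p under 0.05 (14.3% of all tested genes) and 1 call by DESeq2, beside 2.16% of all genes called higher and 1.45% lower. The median was -0.01. Between Ctrl and wt 1 was called higher and 2 lower, beside 2.11% and 2.66% of all genes.

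Of the other 15 Integrator subunits 1 was called in SoF against wt: INTS2 was 0.32 ± 0.08 higher on the log2 scale (61.6 ± 7.05 against 76.6 ± 9.08 CPM, SD, n = 8, adjusted p = 0.0201). The next in order of p, INTS1, stood at -0.33 ± 0.13 (adjusted p = 0.0992), and INTS11, the nuclease that pairs with INTS9, at -0.19 (adjusted p = 0.356). None of the 11 dynactin genes was called. CAPZB, a capping subunit, stood at 0.33 ± 0.11 (adjusted p = 0.0531) and DCTN2 at 0.10. Among the 6 other kinesin-3 motors KIF1A, a neuronal motor, was called higher at 1.11 ± 0.31 (adjusted p = 0.0293), with 5.55 ± 2.73 CPM in wt and 11.95 ± 6.95 in SoF. It was higher still in Ctrl, at 19.9 ± 6.93 CPM, 1.84 ± 0.31 above wt (adjusted p = 0.000882). KIF1C stood at -0.38 (adjusted p = 0.0774).

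The Frizzled and planar polarity genes did not follow FZD3. Of 16 tested, 4 were called lower in SoF than in wt and none higher, with a median of -0.17. FZD7 was at 41.8 ± 5.58 CPM in SoF against 58.1 ± 9.65 in wt (-0.47 ± 0.10, adjusted p = 0.00673), and CELSR2, a cadherin of the polarity pathway, was at 39.3 ± 7.71 against 53.3 ± 6.99 (-0.43 ± 0.11, adjusted p = 0.0176). The other two, named after their values were seen, were FZD2 at -0.53 (adjusted p = 0.0463) and FZD8 at -0.81 (adjusted p = 0.0395). In Ctrl against wt, a comparison that shares the wt libraries, the list had a median of -0.24, and CELSR2 (-0.49, adjusted p = 0.0092) and FZD1 (-0.45, adjusted p = 0.0347) were called lower. Against Ctrl the list's median in SoF was -0.01 and none was called.

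Of 12 heparan sulfate genes XYLT1, which attaches the first sugar of the linker, was called lower in SoF than in wt (-0.48 ± 0.14, adjusted p = 0.0326), and EXTL2 stood at 0.29 (adjusted p = 0.124). Of 6 tested genes of the ghrelin and MBOAT list GHRL, the ghrelin gene, was called higher (0.78 ± 0.22, adjusted p = 0.0306) at the low levels of 0.622 ± 0.143 CPM in wt and 1.07 ± 0.333 in SoF. GHRL was at 1.03 ± 0.334 CPM in Ctrl, a difference of 0.71 from wt (adjusted p = 0.0637), and SoF differed from Ctrl by 0.07 (adjusted p = 0.931). In the same list MBOAT1 stood at -0.35 (adjusted p = 0.238). No gene was called in the lists of store-operated calcium entry (5 tested, with STIM1 at -0.19 and ORAI1 at -0.37), leptin receptor trafficking (2 tested, with LEPR at -0.29 and LEPROT at -0.08) and telomere proteins (7 tested, with TERF1 at 0.46, adjusted p = 0.0759, and ACD at -0.34, adjusted p = 0.172). At an unadjusted p under 0.05 these 3 lists had 0, 0 and 2 genes. Of the partners, 5 lie on chromosome 8 outside the raised stretch: against wt INTS10 stood at 0.22 ± 0.10, INTS8 at 0.14 ± 0.12, TERF1 at 0.46 ± 0.16, FZD6 at -0.06 ± 0.10 and EXT1 at -0.01 ± 0.13, and none was called.

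The partner calls were sensitive to single libraries, as were the calls over all genes between SoF and wt. Between SoF and wt the count was 4 without wt 0 h replicate 1, wt 2 h replicate 1, wt 3 h replicate 2, SoF 1 h replicate 1 or SoF 1 h replicate 2, and 5 without wt 0 h replicate 2, wt 2 h replicate 2, wt 3 h replicate 1, SoF 0 h replicate 2 or SoF 2 h replicate 2. Between SoF and Ctrl it was 2 without SoF 3 h replicate 1 or Ctrl 0 h replicate 2, and 1 without wt 3 h replicate 2, SoF 2 h replicate 1 or SoF 3 h replicate 2. With time added to the model as a term it was 26 between SoF and wt, 14 between SoF and Ctrl and 19 between Ctrl and wt. That model called 3057 of all 21122 genes higher and 3077 lower between SoF and wt. Between SoF and Ctrl these counts over all genes were 1421 and 1393, and between Ctrl and wt 1798 and 2167. In the fit without time, calls over all genes between SoF and wt were 965 higher and 728 lower. They were 525 and 421 without SoF 0 h replicate 2, and 1543 and 1062 without wt 1 h replicate 2. Between SoF and Ctrl they were 456 and 307, against 451 and 299 without SoF 3 h replicate 1 and 494 and 326 without Ctrl 0 h replicate 2.

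**Figure D5:**
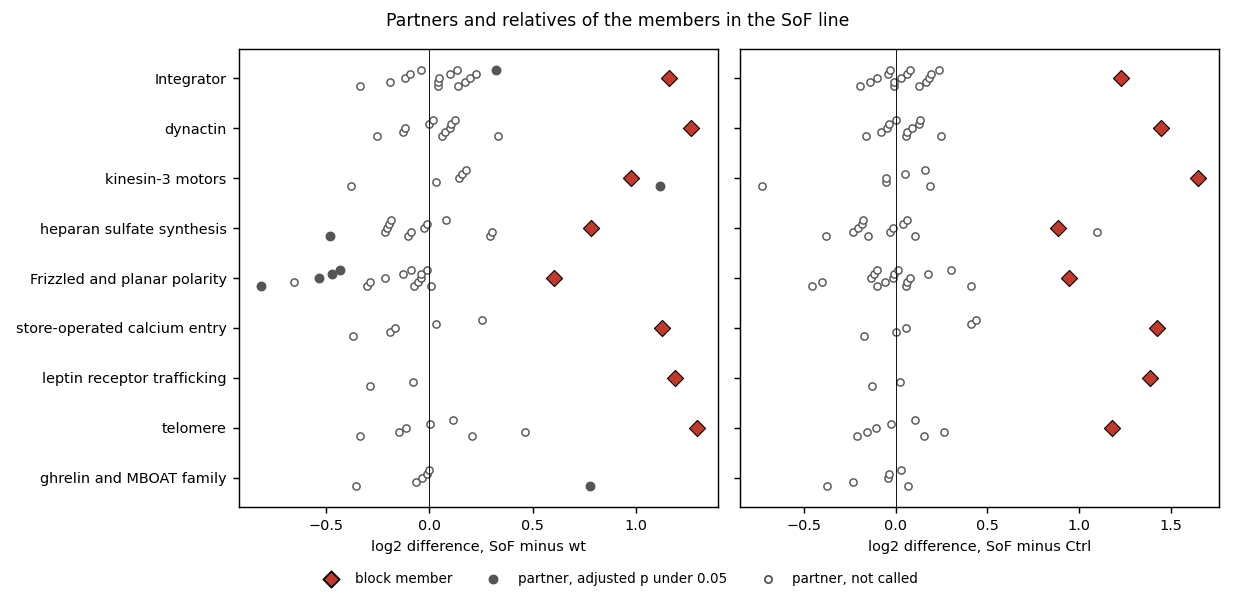
Log2 difference in level (horizontal axes) of SoF minus wt (left) and SoF minus Ctrl (right) for the 80 tested partner genes, a row for each list, filled where the adjusted p was under 0.05, with the tested member of each list as a red diamond. On the left 8 partners are filled, from FZD8 at -0.81 to KIF1A at 1.11, and on the right none is.

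Across the 24 libraries the members followed each other closely because the SoF libraries were high in each. The Pearson correlation of a member with the mean of the other tested members ran from 0.71 for FZD3 to 0.98 for SARAF. Within a line, over 8 libraries, these correlations ran from -0.62 to 0.46 in wt, -0.42 to 0.52 in SoF and -0.66 to 0.53 in Ctrl, with both signs in each line. These are descriptions, since the points share libraries, depth and lines.

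Of the 23572 other genes compared, the 10 whose log2 CPM over the 24 libraries correlated best with the members' mean were ZNF597 on chromosome 16 (r = 0.97), ANXA10 on 4, H4C4 on 6, MYNN on 3, CCDC25 on 8, SHISA9 on 16, PTK2B on 8, ENOSF1 on 18, RRN3P1 on 16 and ENSG00000259366 on 8 (r = 0.93). ZNF597, a zinc finger gene, had means of 1.20 CPM in wt, 7.58 in SoF and 0.461 in Ctrl, and MYNN, another zinc finger gene, had 44.5, 71.6 and 43.9. CCDC25 and PTK2B lie in the lower step described above and ENSG00000259366 in the upper, within HMBOX1 and on its strand. Of the 50 best, 12 were on chromosome 8, 9 of them in the lower or upper step, while 3.496% of the genes compared were on that chromosome. A further 11 were on chromosome 7, 4 on chromosome 3 and 4 on chromosome 16, which held 4.72%, 5.33% and 4.87% of the genes compared. Genes of the lower and upper steps share the SoF height that chose the members. Their place among the best follows from that choice, and nothing is read from these counts. By Spearman correlation 3 of the 10 were again among the best 10.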

How the data were processed

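RNA labelled with 4-thiouridine in 24 libraries of 3 lines was analysed from a table of exon counts per gene deposited by the authors. Per the study's methods and the submitters' processing notes, the authors tagged reads with UMI-tools 1.1.2, trimmed them with Trim Galore 0.6.6, aligned them to hg38 with STAR 2.7.3a, removed duplicates by molecular identifier and counted exons with featureCounts on GENCODE 39. The counts are not normalized.

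The members and all gene lists were chosen with earlier results of these data known. Gene identifiers were matched to GENCODE 44, with 61369 of 61533 (99.7%) found. Counts were filtered with filterByExpr (minimum count 10, minimum total 15) and scaled by trimmed mean of M values (TMM), and CPM use these scaled totals. Tests were edgeR 4.0.16 quasi-likelihood F tests in R 4.3.3 with p-values adjusted by the Benjamini-Hochberg method and a threshold of 0.05. A model of the 12 groups (23651 genes) gave the dexamethasone changes and their differences between lines, and a fit of the 3 lines without time (21122 genes) gave the line differences. SE was the log2 difference divided by the root of F, and intervals are 95%. All tests were run across all genes. Simulated counts were used to check SoF at 3 h against 0 h and SoF against wt, and the other comparisons were not checked in this way. In the simulation of SoF against wt no gene changed with time, unlike in the real libraries. The lines' own spread over 4 times enters every SD over 8 libraries and the p-values of the fit without time.

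Named genes were the members, the tested genes between the outermost members and the 3 nearest on each side, up to 2 genes per partner list by p, the 10 genes most similar in pattern (Pearson correlation of log2 CPM, prior count 2), and NR3C1. Alternatives were DESeq2 1.42.0, median ratio size factors, no scaling beyond totals, no low-count filter, a replicate block, a time term, 0 h or dexamethasone libraries alone, and leaving out each library. Depth per library, 8106036 to 15820806 counts, sets the counting error. No sequence is shown.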

Additional observations from a re-analysis of the deposited data

Results flagged for a closer look

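Within the Ctrl line, 2 members each had a library standing far above the other 7 by Dixon's test at the 95% level. KIF13B was at 35.3 CPM in replicate 1 at 2 h of dexamethasone, against 25.6 to 29.7 in the others. SARAF was at 94.6 CPM in replicate 2 at 2 h, against 71.4 to 78.3 in the others. They are different libraries. Such a gap arises by chance in about 1 of 20 groups, and 48 ends of groups were examined.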

How the results depend on the processing

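The median SoF height of the members ran, leaving out each library in turn, from 1.121 to 1.16 over wt and from 1.27 to 1.32 over Ctrl on the log2 scale, and under the other alternatives from 1.11 (no low-count filter) to 1.23 (no scaling beyond totals) over wt and from 1.28 (0 h alone) to 1.35 (no scaling) over Ctrl. Without the low-count filter, members called at 3 h were 0 in wt (1 with it), 1 in SoF (2) and 1 in Ctrl (0), and partners called between SoF and wt were 3 (8). With a time term, members called between Ctrl and wt were 4 (2), and partners were 26 between SoF and wt (8), 14 between SoF and Ctrl (0) and 19 between Ctrl and wt (3). Calls over all 21122 genes rose as well, to 3057 higher and 3077 lower between SoF and wt (965 and 728). They were 1421 and 1393 between SoF and Ctrl (456 and 307) and 1798 and 2167 between Ctrl and wt (446 and 561). With 0 h libraries alone, members called between Ctrl and wt were 0, and partners 0 between SoF and wt and 0 between Ctrl and wt. Over all 22329 genes that fit called 0 higher and 0 lower between SoF and wt, and 4 and 0 between Ctrl and wt. With dexamethasone libraries alone, chosen after seeing the data, 1 member and 1 partner were called between Ctrl and wt. DESeq2 and totals without scaling each called 1 partner between SoF and Ctrl. The 0 h and dexamethasone subsets hold fewer libraries. Otherwise the cause was not tested. Same-numbered libraries deviated together between all 3 pairs of lines at 0 h (correlations 0.39 to 0.57) but above 0.1 in 2 of 9 pairs of lines at the later times (-0.22 to 0.15 in all), and above 0.1 in 2 of 9 pairs of a later time with 0 h within a line (-0.18 to 0.43), so the numbers were not taken as pairing. The replicate block made 3 calls in SoF at 3 h (2 without), adding DCTN6 at -0.44 (adjusted p = 0.0368), and changed no other count of members by over 1.5 times.

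Leaving out a library gave 0 to 2 members called in SoF at 3 h, 0 in wt at 3 h, 0 to 1 in SoF at 2 h, and 2 between Ctrl and wt, and 4 to 11, 0 to 2 and 2 to 4 partners for SoF against wt, SoF against Ctrl and Ctrl against wt. Signs of small uncalled changes at 3 h turned: SARAF in wt ran from -0.13 to 0.090, in SoF from -0.14 to 0.068 and in Ctrl from -0.017 to 0.037, DCTN6 in wt from -0.17 to 0.023, FZD3 in SoF from -0.70 to 0.12, INTS9 in SoF from -0.082 to 0.17, HMBOX1 in Ctrl from -0.36 to 0.067 and KIF13B in Ctrl from -0.010 to 0.092. SARAF in Ctrl was also -0.0099 by DESeq2 and -0.012 by median ratio factors, and INTS9 between Ctrl and wt was 0.065 at 0 h alone. Over all genes, calls between SoF and wt moved with single libraries too, from 525 higher and 421 lower to 1543 and 1062. By Spearman 3 of 10 similar genes were shared. With 2 libraries a group, changes under about the intervals given were not detectable.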
